A study of Mus musculus with 6 samples.

Results

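The genes described here are 7 cytotoxic effector genes of lymphocytes: the granzymes Gzma, Gzmb, Gzmk and Gzmm, the pore former Prf1, the granule membrane protein gene Nkg7 and the death ligand Fasl. They were named as a set with results of these arrays already known, among them that its members move in opposite directions, so the choice is not independent of the values. All of their annotated probe sets on the Affymetrix Mouse430_2 array were taken, 9 of 45037 non-control probe sets, of which 8 passed a filter on low values. The series holds 6 arrays in 3 groups of 2 replicate pools. All groups were CD4 T cells sorted at day 125 from pooled spleens and mesenteric lymph nodes of 14 BALB/c Rag1-deficient mice, which have no T or B cells of their own. Every host had received wild-type natural regulatory T cells (nTreg) together with wild-type regulatory T cells induced in culture (iTreg), and per the labels' protocol the treated mice had colitis. The sort used an EGFP reporter of Foxp3 and the surface mark Thy1.1: nTreg cells carried EGFP alone, iTreg cells both, and ex-iTreg cells Thy1.1 alone. All groups thus shared hosts, strain and treatment and differed in origin and reporter. Whether both pools of a group came from separate mice is not in the labels, so the p-values reflect pool-to-pool spread alone, and that spread may be technical.

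Cytotoxic lymphocytes kill by releasing granules or by death ligands. Perforin, the product of Prf1, opens pores through which granzymes, a family of serine proteases, enter the target cell, where granzyme B cleaves caspases and the proapoptotic protein Bid. Granzyme A and granzyme K cut after basic residues, granzyme M is best known from innate-like lymphocytes, and Nkg7 sits in the granule membrane and takes part in granule release. Fas ligand, the product of Fasl, binds the receptor Fas and starts the caspase 8 pathway. Regulatory T cells can use granzyme B and perforin in suppression, while Fas ligand on activated T cells also limits the T cell response itself.

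The sequence just upstream of the transcription start is shown for the gene that fell most in ex-iTreg arrays, Gzmb, and for the 3 genes that rose most there, Gzmk, Fasl and Nkg7. Each is the 250 bases before the start annotated by RefSeq on build GRCm38.p6, read 5′ to 3′ on the strand of the gene. The windows are chr14:56262335-56262584 on the minus strand for Gzmb, chr13:113180966-113181215 on the minus strand for Gzmk, chr1:161788496-161788745 on the minus strand for Fasl and chr7:43436888-43437137 on the plus strand for Nkg7. Capitals mark matches on either strand to 5 motifs chosen from general knowledge after the expression values were seen: Runx (TGTGGT), AP-1 (TGANTCA), T-box (GGTGTGA), the CRE core (TGACGT) and STAT (TTCNNNGAA).
Gzmb: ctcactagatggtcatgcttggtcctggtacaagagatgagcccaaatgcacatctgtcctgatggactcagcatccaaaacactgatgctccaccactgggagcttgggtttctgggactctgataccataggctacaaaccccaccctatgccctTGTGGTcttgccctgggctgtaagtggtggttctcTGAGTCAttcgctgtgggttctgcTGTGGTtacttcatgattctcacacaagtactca
Gzmk: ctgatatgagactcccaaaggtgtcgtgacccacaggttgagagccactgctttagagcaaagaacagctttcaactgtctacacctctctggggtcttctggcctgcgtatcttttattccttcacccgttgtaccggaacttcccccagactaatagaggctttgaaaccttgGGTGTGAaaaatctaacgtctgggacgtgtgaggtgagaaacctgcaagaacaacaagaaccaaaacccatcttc
Fasl: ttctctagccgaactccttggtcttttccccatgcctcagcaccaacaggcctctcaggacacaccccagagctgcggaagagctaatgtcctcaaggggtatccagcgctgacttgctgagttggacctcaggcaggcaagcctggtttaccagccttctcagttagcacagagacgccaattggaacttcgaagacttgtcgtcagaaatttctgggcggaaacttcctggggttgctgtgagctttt
Nkg7: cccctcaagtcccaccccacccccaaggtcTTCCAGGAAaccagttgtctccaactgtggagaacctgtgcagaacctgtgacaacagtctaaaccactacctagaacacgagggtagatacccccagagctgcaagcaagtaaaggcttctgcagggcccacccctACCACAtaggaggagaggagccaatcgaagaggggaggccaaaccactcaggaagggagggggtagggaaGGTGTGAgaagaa
The Gzmb window held the Runx letters at 2 places and the AP-1 letters once, while the Gzmk window held only the T-box letters. The Nkg7 window held 1 match each for STAT, Runx and T-box, in that order towards the start, and the Fasl window held none of the 5 motifs. No match overlapped another in these windows. Over all 32851 promoter windows of this length, 14% held the Runx letters, 3.33% the T-box letters, 6.75% the AP-1 letters, 7.02% the STAT letters and 6.47% the CRE core. The 7 genes have 8 windows, Gzmm having 2 annotated starts. Of the 8, 5 held Runx letters, 3 T-box letters, 2 STAT letters, 1 AP-1 letters and 1 the CRE core. A match is a description of letters and was not tested as a binding site.

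Levels are log2 expression; differences between group means are on the same log2 scale, each with the standard error that limma estimated (± SE, n = 2 per group). Array medians lay between 5.47 and 5.49, and arrays of a group correlated across non-control probe sets with r between 0.9968 and 0.9978, against 0.9831 to 0.9910 between groups; probe sets are not independent replicates. Foxp3 itself read 3.99 to 4.29 on all arrays, below the filter level of 5.48, and could not check the sort. The T cell genes Cd3d (12.94 to 13.12) and Cd4 (8.89 to 9.31) were present on all 6 arrays, and the Treg cell genes Il2ra, Ctla4 and Ikzf2 were all lower in ex-iTreg than in iTreg arrays. The spiked poly-A controls averaged 10.03 and 10.12 in nTreg, 11.37 and 11.35 in iTreg, and 8.81 and 8.94 in ex-iTreg arrays. The 3′ minus 5′ signal of the Gapdh control was 0.15 and 0.15 in nTreg, 0.38 and 0.51 in iTreg, and 0.00 and -0.04 in ex-iTreg arrays. These control values moved with the groups, and their part in the results was not tested.

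The mix of directions below was known when the genes were chosen, and both it and the sizes of the differences are given as a description of these genes. Between ex-iTreg and iTreg arrays, Gzmk, Fasl and Nkg7 rose, Gzmb and Prf1 fell, and Gzma and Gzmm did not pass the test. Of all 11019 tested genes 36.6% passed in that comparison, 15.6% upward and 21% downward (limma, Benjamini-Hochberg over 23484 probe sets). Against nTreg arrays, ex-iTreg arrays were higher for 5 of the 7 genes and lower for Gzma and Gzmb, where 37.4% of all genes passed, 18.4% upward and 19% downward. Between iTreg and nTreg arrays Prf1 and Gzmm rose, Gzma, Gzmk and Nkg7 fell, and Gzmb and Fasl did not pass, against 29.1% of all genes, 16.4% upward and 12.7% downward. At least 2-fold differences were found for 4 of the 7 genes in ex-iTreg minus iTreg, for 3 in ex-iTreg minus nTreg and for 0 in iTreg minus nTreg, against 3.54%, 5.83% and 2.26% of all genes. The median absolute difference of the 7 genes was 1.39, 0.99 and 0.40 in these comparisons, against 0.18, 0.19 and 0.16 over all genes. Arrays of the groups did not overlap for 6 of the 7 genes in iTreg minus nTreg, 6 in ex-iTreg minus iTreg and 7 in ex-iTreg minus nTreg, where 68%, 72.8% and 71.1% of all genes did not overlap, so these counts lie little above the background. Signed medians, in the order of the fold counts, were 0.14, 0.54 and 0.06, beside -0.02, 0.03 and 0.04 over all genes.

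**Figure D1:**
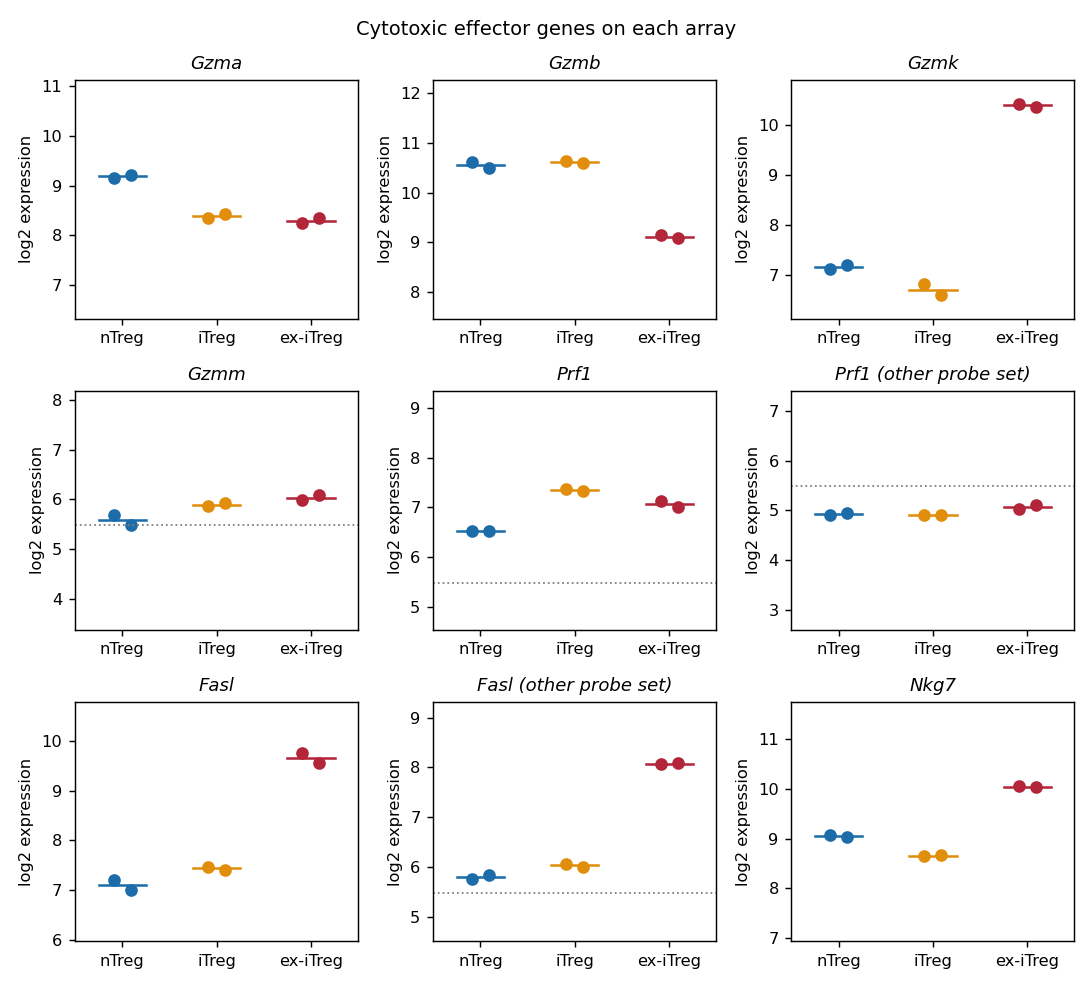
Log2 expression (vertical axes) of every probe set of the 7 genes in nTreg, iTreg and ex-iTreg arrays; points are the 2 pools of a group, bars their mean, the dotted line is the filter level of 5.48 where it falls in the panel, and all panels span the same number of log2 units. Gzmk, Fasl and Nkg7 are highest in ex-iTreg arrays, Gzmb is lowest there, Gzma is highest in nTreg arrays and Prf1 in iTreg arrays.

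Gzmk, the protease granzyme K, showed the largest differences of the 7. It read 7.12 and 7.20 in nTreg arrays, 6.80 and 6.60 in iTreg arrays, and 10.43 and 10.38 in ex-iTreg arrays. Both ex-iTreg pools lay far above all other arrays, and the iTreg pools lay below the nTreg pools without overlap. Relative to iTreg arrays Gzmk rose by 3.70 ± 0.09 in ex-iTreg arrays, a 13.0-fold difference and rank 6 by absolute size among the 11019 genes (adjusted p = 5.86e-06, limma). Relative to nTreg arrays it rose by 3.25 ± 0.09, or 9.49-fold (adjusted p = 3.11e-06, limma). The smaller difference between iTreg and nTreg arrays was -0.46 ± 0.09 (adjusted p = 0.0114, limma), which no longer passed when iTreg pool 2 was left out (-0.36, adjusted p = 0.0543, limma).

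Gzmb, the protease granzyme B, went the other way. It read 10.61 and 10.51 in nTreg arrays, 10.65 and 10.59 in iTreg arrays, and 9.15 and 9.09 in ex-iTreg arrays. The pools of both reporter-positive populations overlapped, and both ex-iTreg pools lay below all of them. Gzmb fell by 1.50 ± 0.07 from iTreg to ex-iTreg arrays, a 2.83-fold difference (adjusted p = 4.62e-05, limma), and ex-iTreg minus nTreg was -1.44 ± 0.07 (adjusted p = 2.94e-05, limma). Between iTreg and nTreg arrays the difference was 0.06 ± 0.07, with a 95% interval from -0.11 to 0.23 (adjusted p = 0.552, limma). On these arrays that interval lay well below the size of the change that separated ex-iTreg arrays from both. It reflects pool-to-pool spread alone.

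Gzmb lies in RefSeq gene order beside other granzyme genes, Gzmc, Gzmf and Gzmn among them. Of 6 such family genes, Gzmc, Gzmd, Gzme, Gzmf, Gzmg and Gzmn, all read below the filter level on all 6 arrays and none entered the test. Gzmc read 5.25 and 5.26 in nTreg, 5.29 and 5.06 in iTreg, and 3.99 and 4.01 in ex-iTreg arrays. In the fit without the filter it differed by -1.18 ± 0.10 in ex-iTreg minus iTreg (adjusted p = 0.000325, limma), a value that compares readings near background. The other 5 differed by -0.15 to 0.15 in that comparison, with adjusted p of 0.272 or more (limma).

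Gzma, the tryptase granzyme A, separated nTreg cells from both populations of induced origin. It read 9.16 and 9.21 in nTreg arrays, 8.34 and 8.43 in iTreg arrays, and 8.24 and 8.35 in ex-iTreg arrays. The nTreg pools stood above all others, and the iTreg and ex-iTreg pools overlapped. Gzma fell by 0.80 ± 0.07 from nTreg to iTreg arrays, a 1.75-fold difference (adjusted p = 0.000873, limma), and ex-iTreg minus nTreg was -0.89 ± 0.07 (adjusted p = 0.000249, limma). Ex-iTreg minus iTreg was -0.09 ± 0.07, with a 95% interval from -0.26 to 0.09 (adjusted p = 0.392, limma). Gzma and Gzmk are next to each other in the RefSeq order of protein-coding genes on chromosome 13, yet in ex-iTreg minus iTreg Gzmk differed by 3.70 and Gzma by -0.09.

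Gzmm, the protease granzyme M, was close to the filter level throughout. It read 5.69 and 5.48 in nTreg arrays, 5.87 and 5.92 in iTreg arrays, and 5.99 and 6.08 in ex-iTreg arrays. The nTreg pools were lowest and the groups did not overlap, but all 6 readings lay within a narrow span. Gzmm was higher in ex-iTreg than in nTreg arrays by 0.45 ± 0.09 (adjusted p = 0.00902, limma), which did not pass with ex-iTreg pool 2 left out (adjusted p = 0.062, limma). The iTreg minus nTreg difference of 0.31 ± 0.09 passed narrowly (adjusted p = 0.042, limma) and was lost without any array except nTreg pool 1, with adjusted p up to 0.164 (limma). Ex-iTreg minus iTreg was 0.14 ± 0.09, interval -0.07 to 0.35 (adjusted p = 0.263, limma).

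Prf1, encoding perforin, was highest in iTreg arrays. It read 6.52 and 6.53 in nTreg arrays, 7.37 and 7.33 in iTreg arrays, and 7.12 and 7.01 in ex-iTreg arrays. The 3 groups did not overlap, with nTreg pools lowest and ex-iTreg pools in between. Prf1 rose by 0.82 ± 0.07 from nTreg to iTreg arrays, or 1.77-fold (adjusted p = 0.000618, limma), and ex-iTreg arrays were higher than nTreg arrays by 0.54 ± 0.07 (adjusted p = 0.00146, limma). The fall from iTreg to ex-iTreg arrays, -0.28 ± 0.07 (adjusted p = 0.0193, limma), was lost without iTreg pool 1, iTreg pool 2 or ex-iTreg pool 2 (adjusted p = 0.088, 0.0664 and 0.118, limma). The other Prf1 probe set read 4.90 to 5.10 on all arrays, below the filter, and did not show this order. In the fit without the filter it differed by -0.01 ± 0.08 in iTreg minus nTreg (adjusted p = 0.945, limma), so the order of Prf1 rests on 1 probe set. Macrophage and monocyte markers were also highest in iTreg arrays: the summed linear level of 8 genes was 2163 to 2288 in nTreg, 4315 to 4344 in iTreg and 2758 to 2787 in ex-iTreg arrays. Of their 7 tested members 6 rose in iTreg over nTreg arrays, where 16.4% of all genes rose. The 3 neutrophil markers analysed were also highest there, with summed levels of 6820 to 6855, 7994 to 8697 and 5573 to 5688. Their part in the Prf1 values was not tested.

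Nkg7, the granule membrane protein gene, was highest in ex-iTreg and lowest in iTreg arrays. It read 9.08 and 9.04 in nTreg arrays, 8.64 and 8.67 in iTreg arrays, and 10.05 and 10.04 in ex-iTreg arrays. Pools of a group lay within 0.04 of each other and the groups did not overlap. Nkg7 rose by 1.39 ± 0.06 from iTreg to ex-iTreg arrays, or 2.62-fold (adjusted p = 4.06e-05, limma), and by 0.99 ± 0.06 from nTreg to ex-iTreg arrays, or 1.98-fold (adjusted p = 8.16e-05, limma). iTreg minus nTreg was -0.40 ± 0.06 (adjusted p = 0.00524, limma). Its group order, ex-iTreg above nTreg above iTreg, was the same as that of Gzmk, with smaller steps.

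Fasl, the death ligand, was read by 2 probe sets that gave the same order. The brighter read 7.21 and 6.999 in nTreg arrays, 7.47 and 7.41 in iTreg arrays, and 9.76 and 9.56 in ex-iTreg arrays. The dimmer read 5.75 and 5.84, 6.07 and 6.01, and 8.07 and 8.08 in the same order of groups. On both, the ex-iTreg pools stood far above the rest and the iTreg pools slightly above the nTreg pools. On the brighter probe set Fasl rose by 2.22 ± 0.10 from iTreg to ex-iTreg arrays, or 4.67-fold (adjusted p = 4.39e-05, limma), and on the dimmer by 2.04 ± 0.07 (adjusted p = 1.34e-05, limma). Among all tested probe sets 37% passed in that comparison, 17.7% upward, and 36.4% in ex-iTreg minus nTreg, 18.1% upward. Against nTreg arrays the rises were 2.56 ± 0.10 and 2.28 ± 0.07 (adjusted p = 1.33e-05 and 4.3e-06, limma). The iTreg minus nTreg difference missed the threshold on the brighter probe set, at 0.33 ± 0.10 (adjusted p = 0.0521, limma), and passed on the dimmer, at 0.24 ± 0.07 (adjusted p = 0.037, limma). The brighter one passed without nTreg pool 1 (adjusted p = 0.0411, limma) and in 6 other of its 14 alternatives, so this small difference lies at the edge of what 2 arrays a group resolve.

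**Figure D2:**
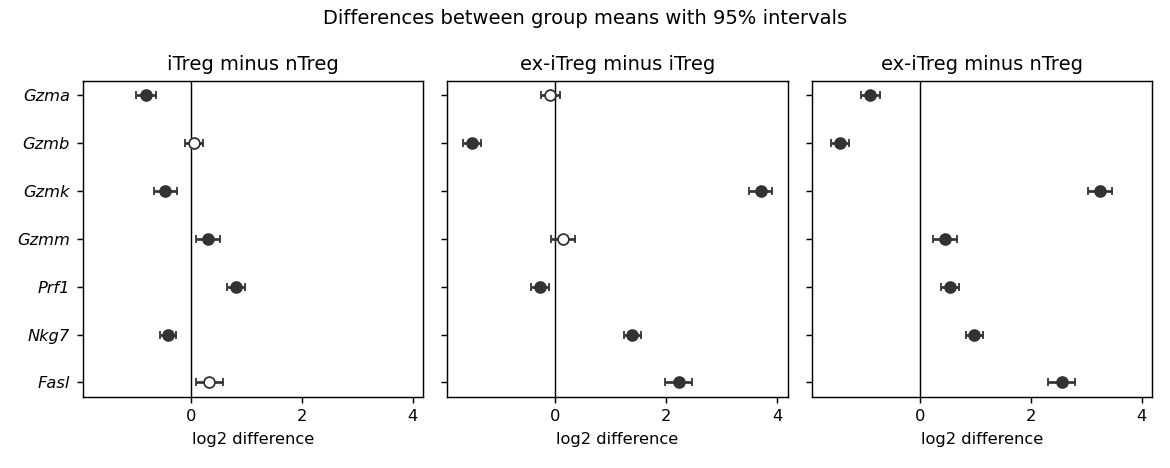
Difference between group means in log2 units (horizontal axes) for the 7 genes in the 3 comparisons; points are limma estimates, bars their 95% intervals, filled points passed an adjusted p of 0.05 and open points did not. In ex-iTreg minus iTreg, Gzmk (3.70), Fasl (2.22) and Nkg7 (1.39) lie to the right and Gzmb (-1.50) to the left of 0.

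The comparisons share arrays, iTreg arrays entering 2 of them and ex-iTreg and nTreg arrays likewise, so they are not independent of each other. By absolute size in ex-iTreg minus iTreg, Fasl ranked 61, Gzmb 161 and Nkg7 197 among 11019 genes, beside rank 6 for Gzmk. In ex-iTreg minus nTreg the ranks were 48 for Gzmk, 94 for Fasl, 339 for Gzmb, 657 for Nkg7 and 769 for Gzma. In iTreg minus nTreg the highest ranks were 413 for Prf1 and 430 for Gzma.

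**Figure D3:**
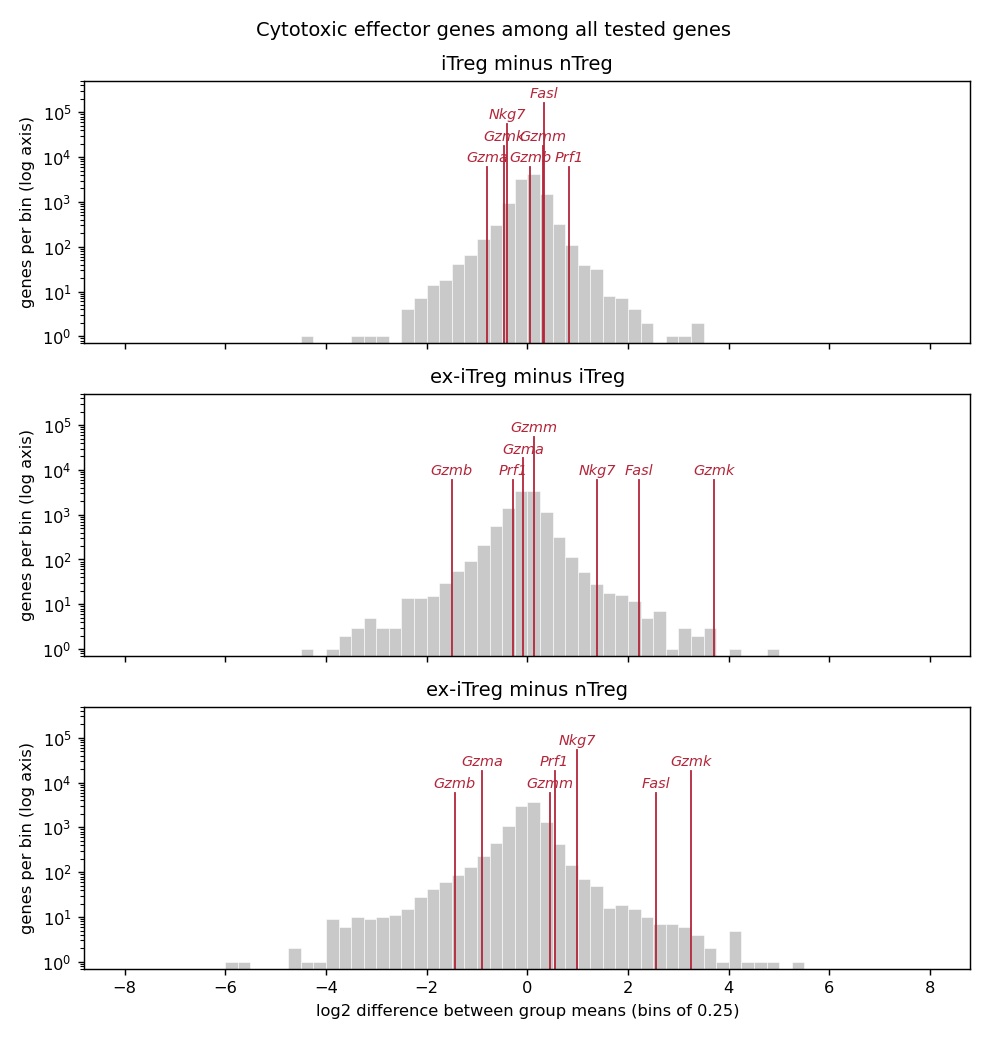
Number of genes (vertical, log axis) in each bin of 0.25 log2 units of the difference between group means (horizontal) for the 11019 tested genes in the 3 comparisons; red lines mark the 7 cytotoxic genes. In iTreg minus nTreg all 7 lie between -0.80 and 0.82, while in ex-iTreg minus iTreg Gzmk, at 3.70, lies in the sparse upper tail and Gzmb, at -1.50, in the lower one.

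Likeness of pattern was measured as the root mean square difference between mean-centred log2 values over the 6 arrays. Among the 21 pairs of the 7 genes, Gzmm and Prf1 were most alike (0.24), both having small ranges, and Gzmb and Gzmk least alike (2.34). Gzmk was closest to Fasl (0.61) and Fasl to Gzmk and then Nkg7 (0.65). The neighbours Gzma and Gzmk differed by 1.88. Over all tested genes with standard names, the nearest to Gzmb were Lta, encoding the cytokine lymphotoxin alpha (0.04), Izumo1r, encoding folate receptor 4 (0.05), and Gbp3, an interferon-induced GTPase (0.06). Lta read 8.77 and 8.65 in nTreg, 8.72 and 8.77 in iTreg, and 7.30 and 7.19 in ex-iTreg arrays. The nearest to Gzmk were Il2, encoding the T cell growth factor (0.18), Slc22a4, an organic cation transporter (0.27), and Klrk1, encoding the activating receptor NKG2D (0.29). All 3 read below the filter level in nTreg and iTreg arrays, so they entered the test through ex-iTreg arrays and the filter set their order. Fasl was closest to Pou2af1 (0.14), Abi3bp (0.15) and Tnfsf8, encoding CD30 ligand (0.16). Pou2af1 and Abi3bp also read below the filter level in nTreg and iTreg arrays and entered the test through ex-iTreg arrays alone. Tnfsf8 read 8.41 and 8.43 in nTreg, 9.11 and 9.02 in iTreg, and 11.14 and 11.14 in ex-iTreg arrays. Nkg7 was closest to Gpat3 (0.07), Zadh2 (0.07) and Gpr171 (0.08), Gzma to Fbxo11 (0.04), Spty2d1 (0.06) and Eea1 (0.06), Prf1 to Eefsec (0.03), Thada (0.05) and Tfap4 (0.06), and Gzmm to Mrpl48 (0.02), Znrd1as (0.03) and Prkce (0.03). With 6 arrays in 3 groups, many genes share such a pattern, and these values describe it only.

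Among genes of granule assembly and release, those that passed were mostly lower in both induced populations than in nTreg arrays. Of 15 listed genes 14 were analysed and tested: in iTreg minus nTreg 2 rose and 7 fell, in ex-iTreg minus iTreg 1 rose and 5 fell, and in ex-iTreg minus nTreg 1 rose and 8 fell. The list's median was -0.20, -0.16 and -0.42, beside 0.04, -0.02 and 0.03 over all genes. Of all genes 16.4% rose and 12.7% fell in the first comparison, 15.6% and 21% in the second, and 18.4% and 19% in the third. In ex-iTreg minus iTreg the 6 calls of 14 lie near the 36.6% of all genes that passed, so they are no result about the list. Stx11, encoding syntaxin 11 of the granule fusion complex, read 10.84 and 10.80 in nTreg, 9.37 and 9.20 in iTreg, and 9.37 and 9.36 in ex-iTreg arrays. It was thus high in nTreg arrays alone, with differences from them of -1.54 ± 0.08 in iTreg and -1.46 ± 0.08 in ex-iTreg arrays (adjusted p = 0.000127 and 4.28e-05, limma). Its other probe set differed by -0.89 and -1.37 (adjusted p = 0.000673 and 4.83e-05, limma). Rab27a, a GTPase that docks granules, differed by -0.65 ± 0.08 in iTreg minus nTreg (adjusted p = 0.00211, limma), but by -0.21 and -0.28 on its other probe sets (adjusted p = 0.148 and 0.215, limma). Igf2r, a receptor for mannose 6-phosphate that sorts lysosomal enzymes, fell in all 3 comparisons (-0.42, -0.46 and -0.88). Lamp2, a lysosomal membrane protein gene, was also lower in iTreg and ex-iTreg arrays than in nTreg arrays, by differences of -0.44 and -0.92.

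Against this list's direction, Lyst, a regulator of lysosome size, was highest in ex-iTreg arrays, by 0.67 ± 0.07 over iTreg and 0.73 ± 0.07 over nTreg arrays (adjusted p = 0.000852 and 0.000427, limma). Unc13d, encoding the granule priming factor Munc13-4, rose by 0.34 ± 0.07 from nTreg to iTreg arrays (adjusted p = 0.0127, limma; 0.0674 when iTreg pool 1 was left out), and fell by 0.52 ± 0.07 from iTreg to ex-iTreg arrays (adjusted p = 0.00202, limma). Lamp1 rose by 0.26 ± 0.06 in iTreg minus nTreg (adjusted p = 0.0244, limma), a call lost when any 1 of the 6 arrays was left out (adjusted p from 0.0509 to 0.0978, limma). Vamp8, a granule fusion protein gene, fell by 0.75 ± 0.07 from iTreg to ex-iTreg arrays (adjusted p = 0.000638, limma). Over all the lists together, which held 14, 3, 6 and 8 tested genes, 16 passed in iTreg minus nTreg, where 29.1% of all genes passed. With 1 array left out 6 to 10 did. Calls over all probe sets fell as well, from 6826 to between 3420 and 5380.

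Granzyme inhibitors were too few to be read against the background. Of 4 listed serpins, Serpinb9b was below the filter, and Serpinb9, Serpinb6a and Serpinb6b, which encode inhibitors of granule proteases, gave 0 calls of 3 in each comparison (limma), where 29.1%, 36.6% and 37.4% of all genes passed in the order used above. At an unadjusted p under 0.05 the count was 1 in iTreg minus nTreg, 0 in ex-iTreg minus iTreg and 0 in ex-iTreg minus nTreg. Serpinb9, whose product inhibits granzyme B, differed by -0.13 ± 0.08 in ex-iTreg minus iTreg (adjusted p = 0.218, limma), beside the fall of 1.50 in Gzmb.

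The receptor side of Fas ligand did not rise with Fasl. Of 9 listed death receptor genes 6 were analysed and tested. In iTreg minus nTreg 1 rose and 2 fell, in ex-iTreg minus iTreg 0 rose and 3 fell, and in ex-iTreg minus nTreg 0 rose and 3 fell, with medians of -0.04, -0.25 and -0.28 beside 0.04, -0.02 and 0.03 over all genes. Of all genes 29.1%, 36.6% and 37.4% passed, and 12.7%, 21% and 19% fell, so a list of 6 with 3 calls in each comparison stands little above that background. Fas, the receptor, read 9.11 and 9.04 in nTreg, 8.64 and 8.89 in iTreg, and 8.72 and 8.73 in ex-iTreg arrays. Its iTreg and ex-iTreg pools overlapped, with a difference of -0.04 ± 0.09 (adjusted p = 0.793, limma). The lower values against nTreg arrays, -0.32 in iTreg and -0.35 in ex-iTreg arrays (adjusted p = 0.048 and 0.0277, limma), lost their calls without nTreg pool 1 or nTreg pool 2, the first also without iTreg pool 1 or either ex-iTreg pool and the second also without either ex-iTreg pool. Casp8, the initiator caspase of the pathway, fell by 0.71 ± 0.07 from iTreg to ex-iTreg arrays (adjusted p = 0.000758, limma). Bid, a granzyme B and caspase 8 substrate, fell by 1.27 ± 0.07 in that comparison on the probe set used (adjusted p = 8.13e-05, limma), while the second Bid probe set gave a difference of 0.08 (adjusted p = 0.49, limma). Fadd, the adaptor between Fas and caspase 8, fell by 0.35 ± 0.08 (adjusted p = 0.018, limma), which did not pass when any 1 of the iTreg or ex-iTreg arrays was left out. In iTreg minus nTreg, Casp8 (0.24) and Bid on the probe set used (-0.27) passed narrowly (adjusted p = 0.0448 and 0.0297, limma). They were lost in 10 and 9 of 13 alternatives. The second Bid probe set differed by -0.66 there (adjusted p = 0.0024, limma). In ex-iTreg minus nTreg the used and the second Bid probe set differed by -1.54 and -0.58 (adjusted p = 2.1e-05 and 0.00216, limma).

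Regulators of cytotoxic genes moved both ways. Of 9 listed genes 8 were analysed and tested: in iTreg minus nTreg 1 rose and 3 fell, in ex-iTreg minus iTreg 4 rose and 2 fell, and in ex-iTreg minus nTreg 4 rose and 3 fell, with medians of -0.17, 0.20 and 0.27 beside 0.04, -0.02 and 0.03 over all genes. Over all genes the shares that rose and fell were 16.4% and 12.7%, 15.6% and 21%, and 18.4% and 19% in the same order. Prdm1, encoding the repressor Blimp-1, read 9.58 and 9.53 in nTreg, 8.78 and 8.75 in iTreg, and 6.72 and 6.59 in ex-iTreg arrays. It fell by 2.11 ± 0.07 from iTreg to ex-iTreg arrays (adjusted p = 1.52e-05, limma) and was lower in iTreg than in nTreg arrays by a difference of -0.79 ± 0.07 (adjusted p = 0.000888, limma). Eomes, a T-box factor of cytotoxic cells, read 6.39 and 6.05 in nTreg, 5.94 and 6.02 in iTreg, and 7.95 and 7.64 in ex-iTreg arrays. It rose by 1.81 ± 0.14 from iTreg to ex-iTreg arrays (adjusted p = 0.000343, limma), and its other probe set by 1.77 (adjusted p = 0.000523, limma). Id2, an inhibitor of E proteins, rose by 1.25 ± 0.08 in the same comparison after a fall of 0.75 from nTreg to iTreg arrays. Stat5b, a transducer of IL-2 signals, differed by -0.33 ± 0.06 (adjusted p = 0.00877, limma; 0.0617 when ex-iTreg pool 2 was left out), and its other probe set by 0.07 (adjusted p = 0.614, limma). Stat4 (0.25) and Stat5a (-0.29) in iTreg minus nTreg passed with adjusted p of 0.0452 and 0.043 (limma), and both calls were lost with any 1 array left out. The other Stat5a probe set differed by -0.78 in that comparison (adjusted p = 0.016, limma). In ex-iTreg minus nTreg it differed by 0.08 (adjusted p = 0.725, limma).

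**Figure D4:**
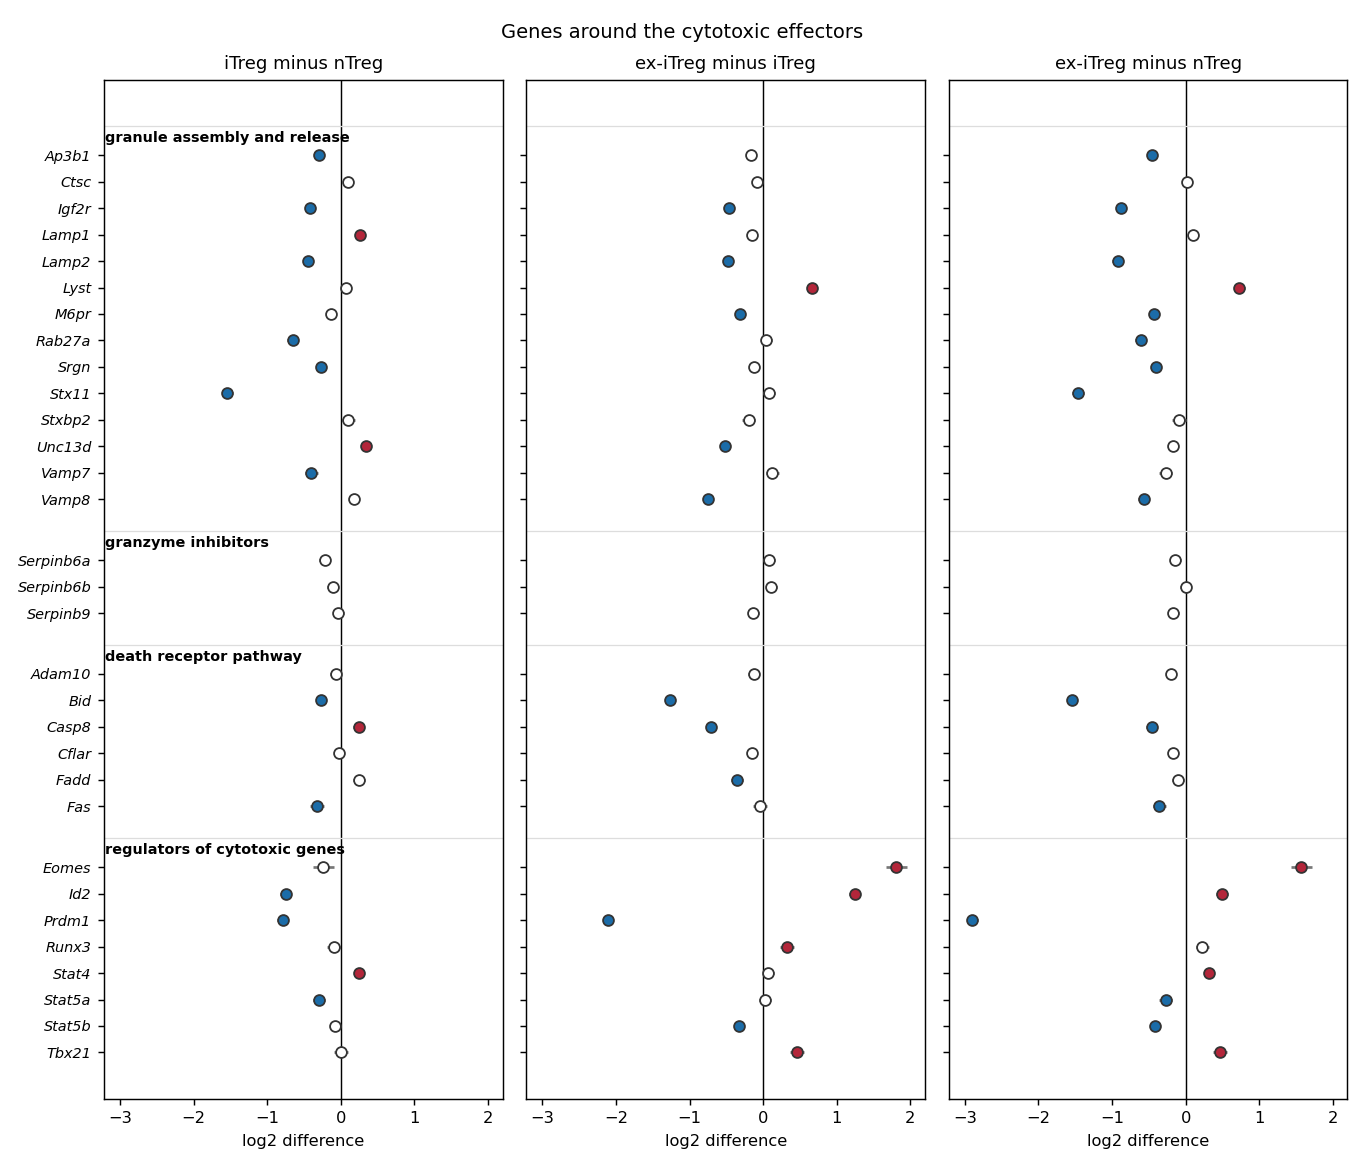
Log2 difference between group means (horizontal axes) of each tested gene of the 4 lists, in the 3 comparisons; bars are standard errors from limma, red points passed the test as higher, blue points as lower, and open points did not pass. Prdm1 lies furthest left in ex-iTreg minus nTreg, at -2.90, and Eomes furthest right in ex-iTreg minus iTreg, at 1.81.

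Cytotoxic genes are also made by CD8 T cells, natural killer (NK) cells, mast cells and basophils, and their markers were read beside them. Fewer cells of a type and less RNA per cell cannot be told apart in such pools. Of 12 listed NK cell genes 10 were analysed, with a summed linear level of 765 to 772 in nTreg, 1121 to 1207 in iTreg and 1507 to 1601 in ex-iTreg arrays. The listed NK cell genes Ncr1, Klre1, Klra8 and Itga2 were below the filter level on all 6 arrays. Those low readings were not a test of whether NK cells were present. Of the 6 tested, one of which (Eomes) is also among the regulators above, Klrd1, Klrk1, Klrc1 and Eomes were higher in ex-iTreg than in iTreg arrays, and Tyrobp and Fcer1g were lower (limma). Klrk1 and Klrc1 were above the filter level on the 2 ex-iTreg arrays only and entered the test through them. The direction of their difference was thus fixed by the filter, and the count of 4 is no support. Klrd1, encoding the receptor chain CD94, read 4.67 and 4.52 in nTreg, 5.50 and 5.52 in iTreg, and 8.49 and 8.54 in ex-iTreg arrays. Cd8b1, the CD8 beta chain, read 7.18 and 7.03 in nTreg, 5.94 and 6.10 in iTreg, and 5.18 and 5.35 in ex-iTreg arrays. It was above the filter level on the 4 nTreg and iTreg arrays only and entered the test through them. Its low reading in ex-iTreg arrays is thus a description only. Cd8a read 6.07 and 6.22, 5.75 and 5.86, and 6.20 and 6.09 in the same order, with nTreg and ex-iTreg pools overlapping; it was higher in ex-iTreg than in iTreg arrays by 0.33 ± 0.09 (adjusted p = 0.025, limma). Of 5 mast cell and basophil genes analysed, 4 were below the filter on all arrays (Mcpt8, Cpa3, Fcer1a and Ms4a2), and Kit, which progenitor cells also express, read 6.30 and 6.40, 5.76 and 5.48, and 6.63 and 7.06, highest in ex-iTreg arrays. The summed level of the 5 was 155 to 157, 130 to 143 and 186 to 219. The 3 B cell markers analysed had summed levels of 266 to 297, 139 to 144 and 64.4 to 72.7. That sum is mostly Cd79b, which read 7.79 and 7.52, 6.38 and 6.56, and 4.50 and 4.80, while Cd79a was below the filter on all arrays. Cd79b likewise was above the filter level on the 4 nTreg and iTreg arrays only. The summed level of 4 plasmacytoid dendritic cell markers, 2073 to 2212, 1151 to 1157 and 782 to 827, followed Ccr9, a chemokine receptor gene that T cells also express, which read 10.63 and 10.54, 9.13 and 9.13, and 7.50 and 7.66. The other 3 did not follow it: Tcf4 was below the filter on all arrays, and ex-iTreg minus nTreg was 0.10 ± 0.10 for Siglech and 0.01 ± 0.09 for Bst2 (adjusted p = 0.484 and 0.924, limma). The part of these cell types in the values of the 7 genes was not tested.

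**Figure D5:**
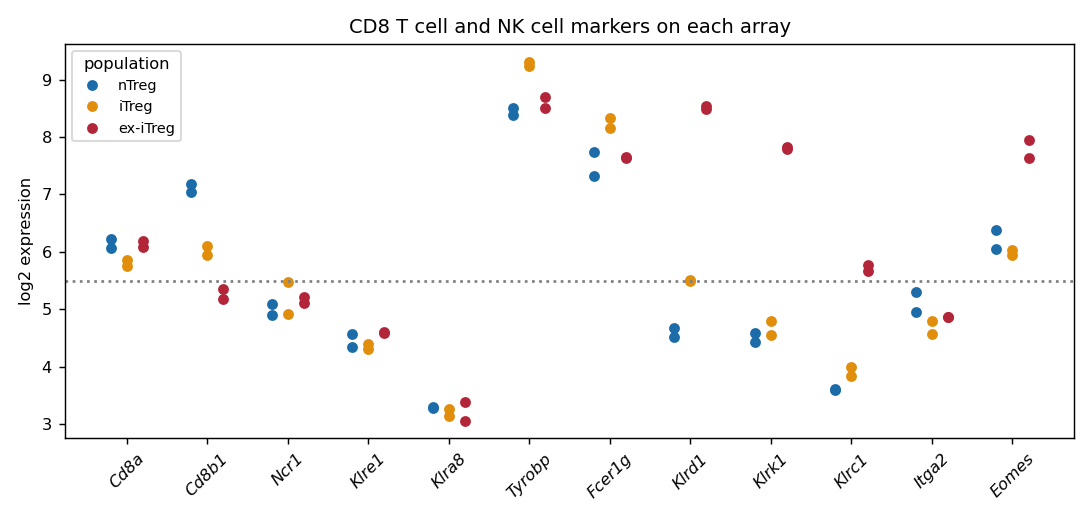
Log2 expression (vertical axis) of CD8 T cell and NK cell marker genes on each of the 6 arrays, coloured by population; the dotted line is the filter level of 5.48. Klrd1, Klrk1, Klrc1 and Eomes are highest in ex-iTreg arrays, Ncr1, Klre1 and Klra8 stay below the line on all arrays, and Cd8b1 is lowest in ex-iTreg arrays.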

How the data were processed

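Expression in 6 pools was measured on Affymetrix Mouse430_2 arrays. The deposited table holds 1 log2 value per probe set and array. Per the submitters' processing notes the authors used RMA; its version is not given in the sources here. Gene names came from the platform annotation (1 symbol for 34945 probe sets, several for 932, none for 9160 of 45037; 64 controls left out), and all 9 probe sets of the 7 genes matched RefSeq by Entrez identifier. The files name no genome build; only promoter windows carry coordinates. The filter kept 23484 probe sets that exceeded the overall median (5.48) on 2 or more arrays. Of several probe sets of a gene the brightest by mean stood for it, leaving 11019 genes. limma 3.58.1 in R 4.3.3 (lmFit, eBayes) fitted 1 mean per group over all arrays, with 3 residual and 3.37 prior degrees of freedom, Benjamini-Hochberg adjustment over all tested probe sets and a threshold of 0.05; it was tested on simulated data. With 2 arrays a group, the smallest two-sided exact permutation p is 0.333. Summed marker levels add 2 to the power of each log2 value. The 7 genes and the lists were chosen with earlier results of these data known. List genes were named by t statistic, up to 4 per list and comparison among those that passed, with any that moved against their list. Alternatives were other filters, normalizations, priors, the replicate block, 2 groups only, the mean of a gene's probe sets and each array left out. The number of arrays limits the precision.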

Additional observations from a re-analysis of the deposited data

How the results depend on the processing

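No difference of the 7 genes changed direction in 291 recomputed values, of which 269 kept their side of the threshold, 15 lost the call and 7 gained it. Other filters, the replicate block, the other prior, only 2 groups and leaving out an array of the third group left each difference unchanged. Direction was therefore fixed in those settings, and leaving out an array of the third group repeated the fit with only 2 groups. The large differences, those of Gzmk, Gzmb, Fasl and Nkg7 in ex-iTreg arrays against either other population, passed in all 14 alternatives. With 1 array left out, 3 to 6 of the 7 genes passed in iTreg minus nTreg (3 without iTreg pool 2), 4 to 5 in ex-iTreg minus iTreg and 6 to 7 in ex-iTreg minus nTreg. Probe sets past the threshold then numbered 3420 to 5380 in iTreg minus nTreg (6826 with all arrays; 3420 without iTreg pool 2 and 4002 without iTreg pool 1). They numbered 4971 to 9104 in ex-iTreg minus iTreg (8694 with all; 4971 without ex-iTreg pool 2, 5270 without ex-iTreg pool 1 and 5719 without iTreg pool 2) and 5243 to 7928 in ex-iTreg minus nTreg (8558 with all; 5243 and 5305 without ex-iTreg pools 1 and 2). List genes past the threshold in iTreg minus nTreg numbered 6 to 10 with an array left out, 8 without the filter and 10 with only the 2 groups compared, against 16; fewer arrays, more probe sets tested and fewer residual degrees of freedom are part of those alternatives. Without the filter Prf1 in ex-iTreg minus iTreg lost its call (adjusted p = 0.0574, limma).

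Pool 1 minus pool 2 differences correlated between groups with r of -0.01, -0.09 and -0.04 across tested probe sets. The labels do not say whether pools of the same number shared a batch, and that was not tested. With the replicate block 5, 5 and 7 of the 7 genes passed in iTreg minus nTreg, ex-iTreg minus iTreg and ex-iTreg minus nTreg; in the first, Gzmm lost its call (adjusted p = 0.0691, limma) and Fasl gained one (0.0311). Gzmm, near the filter level, did not pass the stricter filter.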
